A study of Mus musculus with 3 samples.

Results

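Receptors for neuropeptides of fear and stress were examined in neurons from tissue dissected as the basolateral amygdala (BLA). The set was taken by gene symbol and holds 10 of the 32285 genes in the files: *Crhr1*, *Crhr2*, *Npsr1*, *Oxtr*, *Avpr1a*, *Cckbr*, *Tacr1*, *Tacr3*, *Npy1r* and *Npffr2*. The data were single-nuclei RNA sequencing (snRNAseq) counts from the microdissected BLA of male C57BL/6NRj mice at postnatal day 56. Tissue of 4 brains was pooled for a dataset, and no treatment or genotype was compared. In this assay each droplet barcode stands for a nucleus, and a unique molecular identifier (UMI) counts each captured RNA molecule once. The receptors are described in libraries 2 and 3, which are the replicates (n = 2 throughout). Library 1 was not used for the comparisons.

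Nuclei were sorted by transmitter genes. Glutamatergic nuclei had at least 2 UMIs of the vesicular glutamate transporters *Slc17a7* and *Slc17a6* and 0 of the GABA-synthesizing enzymes *Gad1* and *Gad2*, and GABAergic nuclei had the reverse. Both classes also held less than 0.1% of their UMIs in the glial glutamate transporters *Slc1a2* and *Slc1a3*. This gave 484 and 210 glutamatergic and 388 and 677 GABAergic nuclei in libraries 2 and 3. Glutamatergic nuclei were split by at least 2 UMIs of a single one of *Rspo2* (77 and 20 nuclei), *Rorb* (38 and 21) and *Grik1* (86 and 46). The authors of the data used these genes to mark different glutamatergic clusters of the BLA. They placed a further glutamatergic cluster in the posterior medial amygdala, so the nuclei gated here need not all be of the BLA. GABAergic nuclei were split at 3 UMIs of the transcription factor *Foxp2* into Foxp2-high (153 and 351) and Foxp2-low nuclei (235 and 326). The authors of the data used *Foxp2* to mark intercalated cells and *Rarb* to mark the amygdalostriatal area. They set both apart from the local interneurons of the BLA. The gates used here keep such nuclei in the GABAergic class, so Foxp2-high nuclei need not be BLA interneurons.

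The members are G protein-coupled receptors. *Crhr1* and *Crhr2* bind corticotropin-releasing hormone and the urocortins and raise cyclic AMP through Gs. *Cckbr* (cholecystokinin), *Tacr1* (substance P), *Tacr3* (neurokinin B), *Oxtr* (oxytocin) and *Avpr1a* (vasopressin) signal mainly through Gq and phospholipase C. *Npsr1*, the receptor of neuropeptide S, couples to both, whereas *Npy1r* (neuropeptide Y) and *Npffr2* (neuropeptide FF) act through Gi and lower excitability. In the amygdala, corticotropin-releasing hormone and cholecystokinin are known to promote anxiety, and neuropeptide Y and neuropeptide S are known to reduce it.

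Libraries 2 and 3 held 24354374 and 33049068 UMIs in 3792 and 4588 barcodes. They shared 7 barcode sequences, none of them among the neuronal nuclei. Glutamatergic nuclei were deeper (median 15526 and 13077 UMIs) than GABAergic nuclei (7646 and 7246), so levels are given in CPM, the UMIs of a gene scaled to a fixed total of the group's summed UMIs (counts per 1e6). The classes were checked with markers that the gate did not use. Of the glutamatergic markers, *Neurod2* was at 16.2 and 11 CPM in glutamatergic and 0.560 and 1.51 CPM in GABAergic nuclei, and *Camk2a*, the most abundant, was at 952 and 639 against 482 and 376 CPM. Of the GABAergic markers, *Dlx6os1* was at 306 and 315 CPM in GABAergic and 2.14 and 11.3 CPM in glutamatergic nuclei. The 6 oligodendrocyte markers summed to 116 to 211 CPM and the 6 astrocyte markers to 76.7 to 185 CPM in the 2 classes, against 12725 or more in oligodendrocyte-like and 14303 or more in astrocyte-like nuclei. The 4 oligodendrocyte precursor markers were higher in both classes, at 294 and 485 CPM in glutamatergic and 606 and 626 CPM in GABAergic nuclei. In oligodendrocyte precursor-like nuclei they summed to 10109 and 8461 CPM. The part of these glial marker levels in the receptor counts was not tested. Of the splitting genes, *Grik1* was at 144 and 251 CPM in glutamatergic and 1013 and 796 CPM in GABAergic nuclei. *Rorb* was at 44.1 and 53.6 CPM in glutamatergic and 1836 and 2389 CPM in astrocyte-like nuclei. The part of RNA from other nuclei in the splits was not tested. The splits also differed in the transporters of the gate. *Slc17a6* was at 42.3 and 80.7 CPM in Grik1, 35.8 and 45 CPM in Rorb and 4.68 and 7.91 CPM in Rspo2 nuclei. *Slc17a7* was at 144 and 107 CPM in Grik1, 179 and 146 CPM in Rorb and 178 and 153 CPM in Rspo2 nuclei. Whether the 3 splits all lie in the BLA was not tested. Oligodendrocyte-like nuclei (180 and 272, median 2395 and 2192 UMIs) served as the measure of receptor UMIs outside neurons.

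All 10 members were found in the GENCODE vM21 annotation of GRCm38, and none overlaps another gene on its strand. *Crhr1* lies at chr11:104132855-104175523, *Crhr2* at chr6:55090049-55133016, *Npsr1* at chr9:24097996-24316398, *Cckbr* at chr7:105425731-105470898 and *Tacr1* at chr6:82402334-82560104. *Tacr3* lies at chr3:134829007-134934579, *Npy1r* at chr8:66697192-66706792, *Npffr2* at chr5:89527429-89583740, *Oxtr* at chr6:112473683-112489943 and *Avpr1a* at chr10:122448499-122453452. The genes span from 4.95 kb (*Avpr1a*) to 218 kb (*Npsr1*), and a nuclear count can rise with gene length, so levels are compared between groups of nuclei and not between receptors.

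*Avpr1a* had 0 UMIs in all 3 libraries. Over 9199 barcodes a count of 0 allows a share of up to 0.0326% of barcodes with a UMI, for counting error alone. The other 9 members were detected in both libraries, from 21 and 23 UMIs (*Oxtr*) to 2723 and 2861 UMIs (*Npsr1*) over all barcodes.

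**Figure D1:**
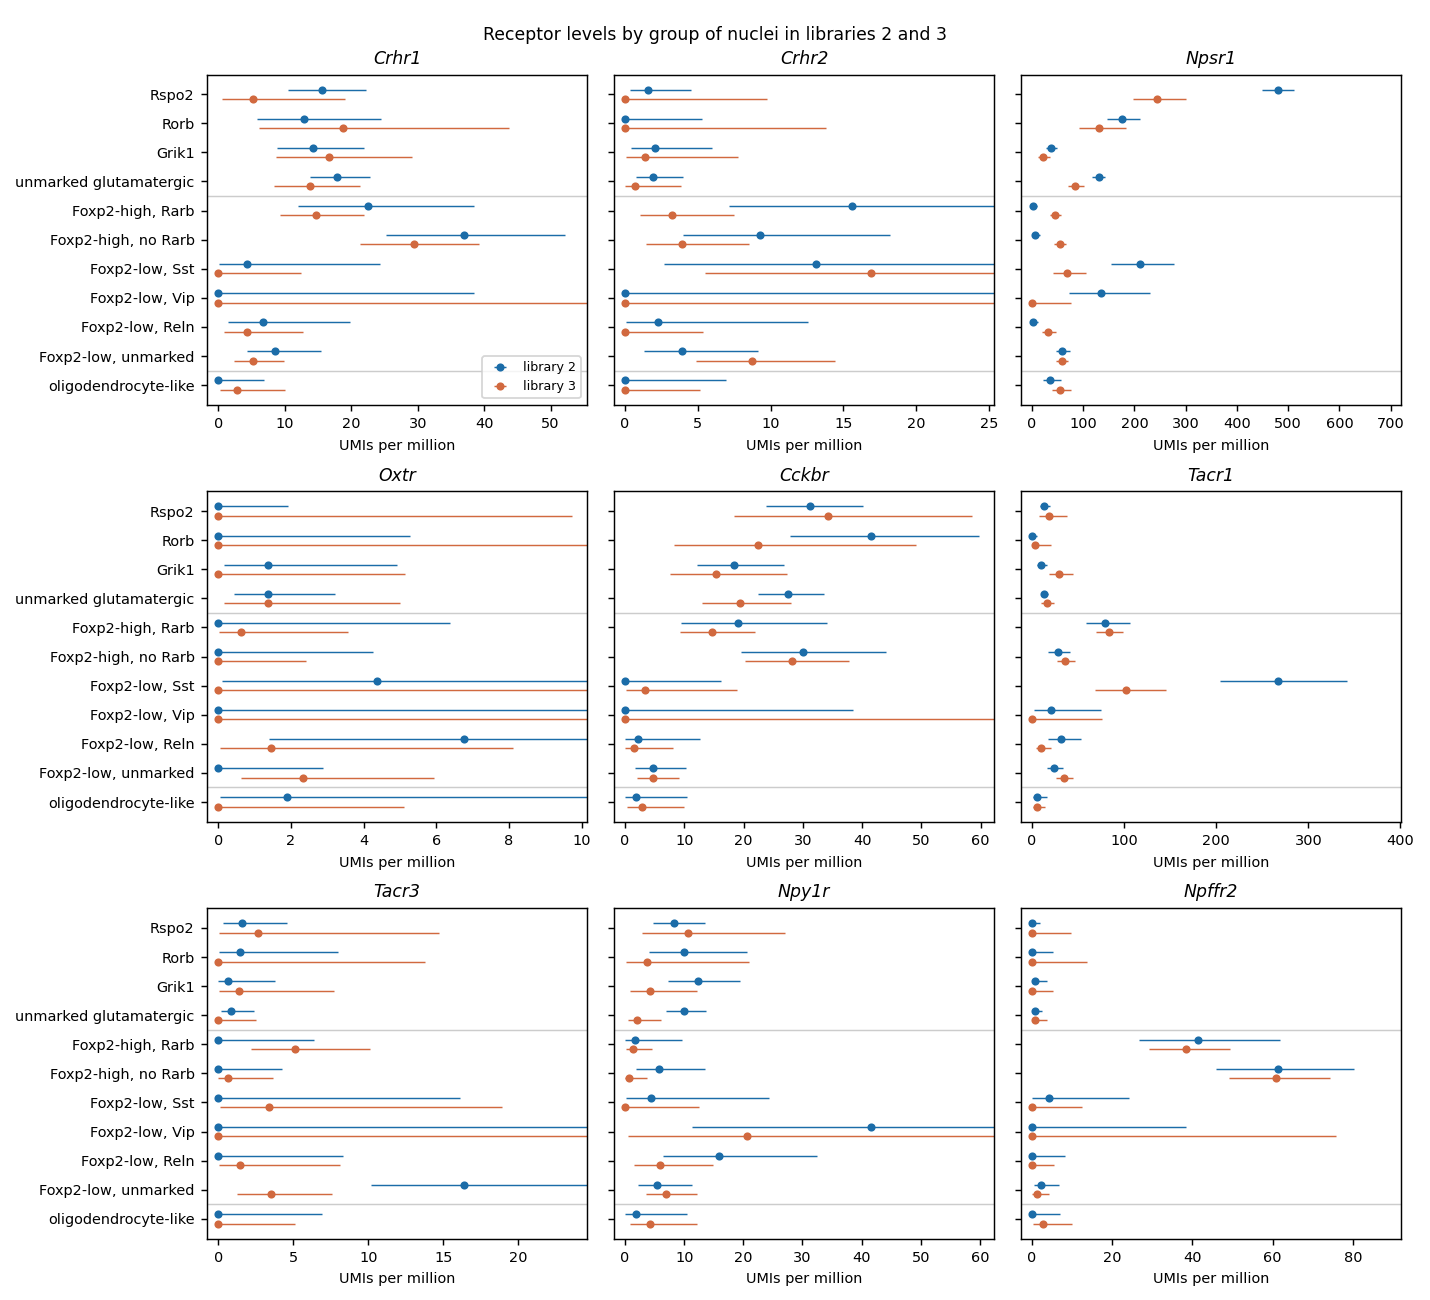
Level of 9 receptors (*Avpr1a* had no UMI) in 10 groups of neuronal nuclei and in oligodendrocyte-like nuclei, in CPM on a linear axis that differs between panels. Points are libraries 2 (blue) and 3 (orange), and bars are exact Poisson 95% intervals, which run past the axis in some small groups. *Npffr2* sits at 38.3 to 61.3 CPM in the Foxp2-high groups and at or under 4.37 CPM elsewhere.

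The first comparison asked in which transmitter class each receptor was found. *Npffr2*, *Crhr2* and *Tacr1* were higher in GABAergic nuclei, and *Npsr1* and *Cckbr* were higher in glutamatergic nuclei. Of the 10 members, 8 passed the filter on low counts, and 5 were called at an adjusted p under 0.05 (edgeR, Benjamini-Hochberg). Of all 12872 genes tested, 16.4% were called, with 7.75% above in the glutamatergic and 8.66% above in the GABAergic class. A fit with the library as a block called the same number of members and 3216 instead of 2112 genes.

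*Npffr2* had 22.7 and 26.0 CPM in GABAergic and 0.476 and 0.315 CPM in glutamatergic nuclei of libraries 2 and 3. The classes did not overlap, and the glutamatergic level rested on 5 UMIs in 694 nuclei. The log2 difference, glutamatergic minus GABAergic, was -5.78 ± 0.42 (SE, adjusted p = 1.13e-06). *Crhr2* had 7.28 and 5.37 CPM in GABAergic against 1.55 and 0.630 CPM in glutamatergic nuclei, giving a log2 difference of -2.31 ± 0.47 (adjusted p = 0.00325). Its level was low in both classes and rested on 58 GABAergic and 15 glutamatergic UMIs. *Tacr1* had 49.6 and 48.0 CPM in GABAergic and 11.4 and 21.1 CPM in glutamatergic nuclei, a log2 difference of -1.65 ± 0.28 (adjusted p = 0.000786).

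*Npsr1* had 202 and 93.0 CPM in glutamatergic and 40.3 and 50.9 CPM in GABAergic nuclei. Glutamatergic nuclei were higher in both libraries, but the size differed, with a log2 ratio of 2.32 in library 2 and 0.87 in library 3. The fitted log2 difference was 1.69 ± 0.26 (adjusted p = 0.000416). That SE rests on a spread shared in part with other genes and does not measure the gap between the 2 library ratios. Oligodendrocyte-like nuclei had 35.8 and 55.5 CPM of *Npsr1*, from 19 UMIs in 3 nuclei and 40 UMIs in 10 nuclei, with 17 and 31 of them in a single nucleus. Astrocyte-like nuclei (320 and 827) had 9.81 and 5.06 CPM, with at most 1 UMI in a nucleus. Oligodendrocyte precursor-like nuclei (87 and 55) had 28.2 and 49.5 CPM, and vascular-like nuclei (46 and 67) had 12.2 and 0 CPM. Microglia-like nuclei (99 and 53) had 8.36 and 96.9 CPM. The latter came from 18 UMIs in 3 nuclei and was above the 93.0 CPM of glutamatergic nuclei in library 3. *Cckbr* had 27.6 and 19.5 CPM in glutamatergic and 12.3 and 12.8 CPM in GABAergic nuclei, a log2 difference of 0.94 ± 0.23 (adjusted p = 0.0118). This was the smallest of the 5 called differences, and DESeq2 gave it an adjusted p of 0.0622.

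*Crhr1* was found at like levels in the classes, 16.6 and 13.9 CPM in glutamatergic and 17.1 and 13.4 CPM in GABAergic nuclei. The log2 difference was 0.04 ± 0.24 (adjusted p = 0.949). Its approximate 95% interval, from -0.42 to 0.50, assumed a normal distribution and is narrower than the F test would give. *Npy1r* had 9.29 and 4.10 CPM in glutamatergic and 7 and 3.36 CPM in GABAergic nuclei (log2 difference 0.55 ± 0.41, adjusted p = 0.476). Library 2 was above library 3 in both classes, so that the spread between libraries exceeded that between classes. *Tacr3* had 2.02 and 2.52 CPM in glutamatergic and 5.88 and 3.02 CPM in GABAergic nuclei (log2 difference -0.94 ± 0.47, adjusted p = 0.229). *Oxtr* did not pass the filter, with 8 and 2 UMIs in glutamatergic and 4 and 7 UMIs in GABAergic nuclei.

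**Figure D2:**
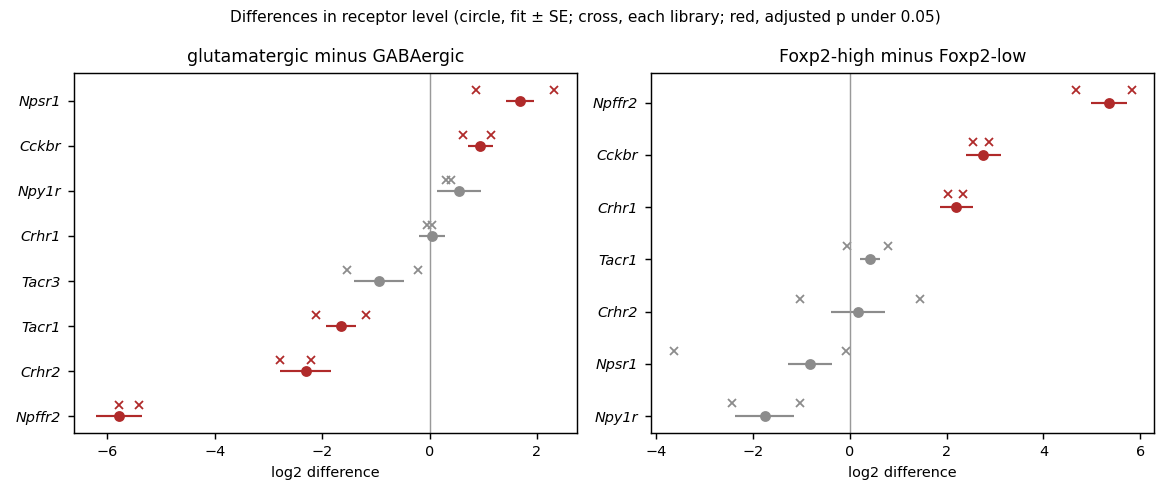
Log2 differences of the members that passed the filter on low counts, for glutamatergic minus GABAergic nuclei (left) and Foxp2-high minus Foxp2-low nuclei (right). Circles with bars are the edgeR estimate ± SE, crosses are the log2 ratio in each library, and red marks an adjusted p under 0.05. *Npffr2* lies at -5.78 on the left and at 5.36 on the right.

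Counts also depend on depth, so the share of nuclei with a UMI was set beside the share in oligodendrocyte-like nuclei. At full depth, 6 of 10 members had a share in at least 1 class whose exact 95% interval lay above that of oligodendrocyte-like nuclei in both libraries. *Crhr1*, *Cckbr* and *Tacr1* did so in both classes, *Npsr1* in glutamatergic, and *Crhr2* and *Npffr2* in GABAergic nuclei. The share of all genes that would do so was not counted, and both classes were deeper than oligodendrocyte-like nuclei. The count of 6 is therefore no finding about these receptors as a set. *Crhr1* was detected in 21.9% and 16.7% of glutamatergic and in 12.4% and 9.60% of GABAergic nuclei, although its CPM was alike in the deeper glutamatergic nuclei. *Cckbr* was detected in 31.6% and 23.8% of glutamatergic and 8.76% and 9.60% of GABAergic nuclei, against 0.556% and 0.735% of oligodendrocyte-like nuclei. *Tacr1* was detected in 10.3% and 10.0% of glutamatergic and 16.8% and 20.1% of GABAergic nuclei.

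When every nucleus was thinned to 1000 UMIs, 2 of the 6 stayed above that measure in both libraries. *Npsr1* was then found in 8.71% and 7.28% of glutamatergic nuclei (95% intervals 6.35 to 11.6% and 4.13 to 11.7%) against 0.602% and 1.12% of oligodendrocyte-like nuclei. *Tacr1* was found in 5.45% and 4.28% of GABAergic nuclei (3.41 to 8.22% and 2.89 to 6.09%) against 0.602% and 0%. These 2 are also the longest genes of the set (218 and 158 kb), and the part of gene length was not tested. For *Npffr2* the thinned share in GABAergic nuclei was 2.34% and 2.95%, and it was 0 of 166 and 0 of 268 oligodendrocyte-like nuclei (upper bounds 2.20% and 1.37%). The intervals overlapped in library 2 (from 1.07%) and not in library 3 (from 1.81%). With bounds of 2.20% and 1.37% at 0 nuclei, a receptor of low level could hardly pass. No conclusion is drawn from the members that did not. Without thinning, their mean in oligodendrocyte-like nuclei was 1.39 (*Crhr1*), 0 (*Crhr2*), 2.33 (*Cckbr*) and 1.39 CPM (*Npffr2*). In the same order, GABAergic nuclei had 15.3, 6.33, 12.5 and 24.4 CPM and glutamatergic nuclei 15.2, 1.09, 23.6 and 0.396 CPM. Thinning left out 2 to 14 shallower nuclei per class in library 2 and up to 4 in library 3. *Npsr1* in GABAergic nuclei (5.41% and 6.50% at full depth, and 2.08% and 1.92% thinned) was not told apart from oligodendrocyte-like nuclei (1.67% and 3.68%, intervals up to 4.79% and 6.66%).

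**Figure D3:**
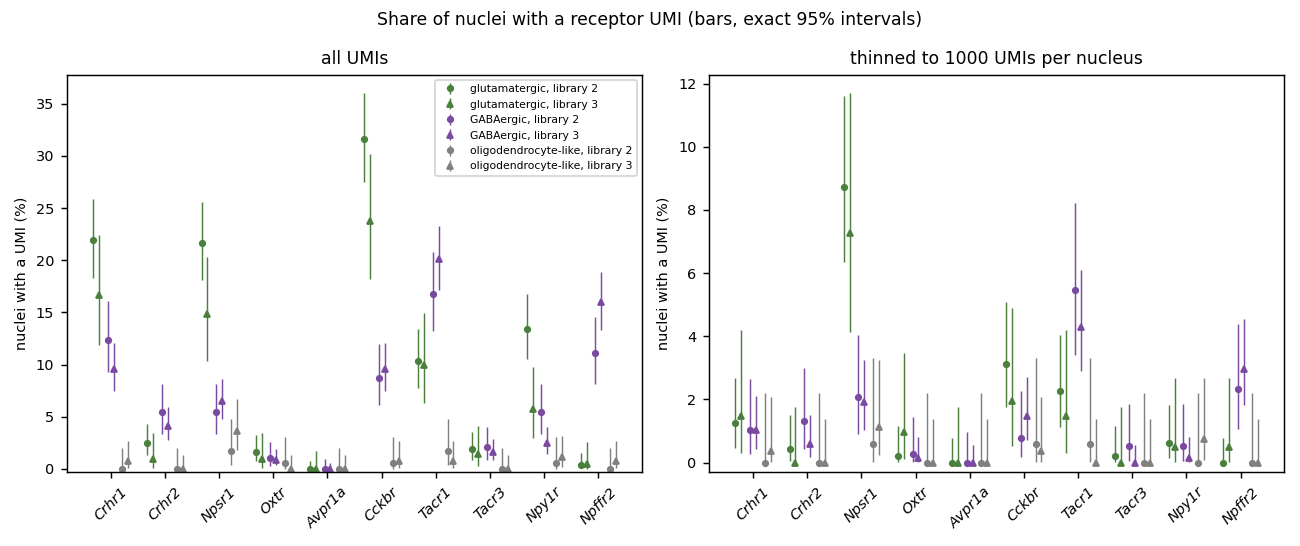
Share of nuclei with at least 1 UMI of each receptor, at full depth (left) and after thinning each nucleus to 1000 UMIs (right), in glutamatergic (green), GABAergic (purple) and oligodendrocyte-like (grey) nuclei. Circles are library 2, triangles library 3, and bars exact 95% intervals. On the right, *Npsr1* is at 8.71% and 7.28% in glutamatergic and at 0.602% and 1.12% in oligodendrocyte-like nuclei.

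The second set of comparisons asked whether the receptors differed among glutamatergic nuclei. *Npsr1* was higher in Rspo2 and in Rorb than in Grik1 nuclei, and higher in Rspo2 than in Rorb nuclei, a call that depended on the settings. Of the 10 members, 5 passed the filter (*Crhr1*, *Npsr1*, *Cckbr*, *Tacr1* and *Npy1r*), and *Npsr1* was the member called in each of the 3 comparisons. Of the 9028 genes tested, 2.57% were called between Rspo2 and Rorb, 3.63% between Rspo2 and Grik1 and 3% between Rorb and Grik1 nuclei.

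*Npsr1* had 480 and 245 CPM in Rspo2, 176 and 131 CPM in Rorb and 37.5 and 20.9 CPM in Grik1 nuclei. The groups did not overlap. Unmarked nuclei, with at most 1 UMI of each marker, lay between Rorb and Grik1 at 130 and 84.5 CPM. Grik1 nuclei were below the 40.3 and 50.9 CPM of the GABAergic class, so the class difference did not hold for them. The log2 difference between Rspo2 and Grik1 was 3.66 ± 0.31 (adjusted p = 1.05e-05), and between Rorb and Grik1 it was 2.44 ± 0.33 (adjusted p = 0.00062). Between Rspo2 and Rorb it was 1.22 ± 0.28 (adjusted p = 0.0273). The last call was lost with at least 4 transmitter UMIs (log2 difference 0.34, adjusted p = 0.935) and with 1 UMI more of the splitting markers (1.05, adjusted p = 0.065).

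The *Npsr1* counts were uneven between nuclei. In library 2, 36 of 77 Rspo2 nuclei had a UMI of it, with a median of 23 UMIs among these and a maximum of 75, and 27 had at least 10. In library 3, 7 of 20 Rspo2 nuclei had a UMI, 4 had at least 10, and 5 nuclei held 97.8% of the UMIs. At least 10 UMIs were found in 5 of 38 and 2 of 21 Rorb nuclei and in 2 of 86 and 1 of 46 Grik1 nuclei. Rspo2 nuclei were the deepest (median 23545 and 17526 UMIs), against 20214 and 12552 in Rorb and 17004 and 13668 in Grik1 nuclei. The part of depth in these counts per nucleus was not tested. No other member showed such a range, as the next highest count in a glutamatergic or GABAergic nucleus was 20 UMIs of *Tacr1*. *Npsr1* is also the longest gene of the set, and the part of gene length in this range was not tested. When each nucleus was allowed at most 3 UMIs of a member, an alternative chosen after the values were seen, Rspo2 against Grik1 remained called, whereas Rspo2 against Rorb (adjusted p = 0.229) and Rorb against Grik1 (adjusted p = 0.217) did not.

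Such nuclei were not confined to the glutamatergic class. At least 10 *Npsr1* UMIs were also found in 6 of 388 and 8 of 677 GABAergic nuclei and in 1 of 180 and 1 of 272 oligodendrocyte-like nuclei. In library 2, 62.4% of all *Npsr1* UMIs lay in glutamatergic nuclei, but in library 3 this was 10.3%. There, 32.6% lay in barcodes with UMIs of both transmitters (119 CPM), 20% in barcodes with 1 transmitter UMI (106 CPM) and 19.9% in barcodes with no transmitter UMI that were not glia-like (100 CPM). These levels were above the 93.0 CPM of glutamatergic nuclei in that library. Barcodes with both transmitters were 227 in library 3 (median 22850 UMIs) and 126 in library 2 (12049), and their part in the *Npsr1* result was not tested.

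**Figure D4:**
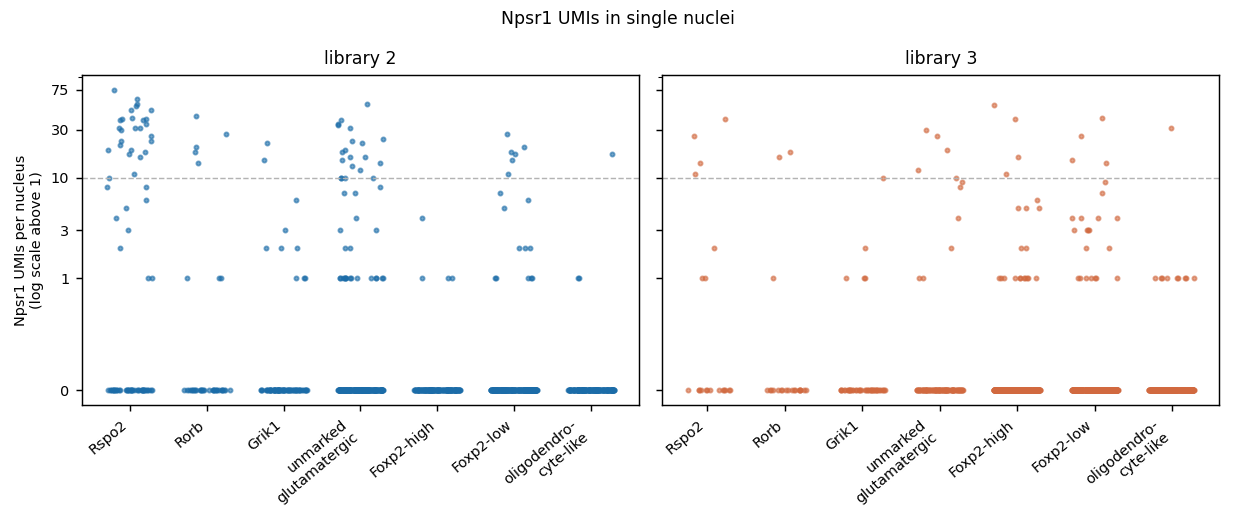
*Npsr1* UMIs in each nucleus (dot) of 7 groups, in library 2 (left) and library 3 (right), on an axis that is logarithmic above 1, with dots spread sideways for legibility. The dashed line marks 10 UMIs. In library 2, 27 of 77 Rspo2 nuclei lie on or above the line, and in library 3 4 of 20 do.

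*Cckbr* was at 31.2 and 34.3 CPM in Rspo2, 41.5 and 22.5 CPM in Rorb and 18.4 and 15.3 CPM in Grik1 nuclei. Grik1 nuclei were the lowest in both libraries, but neither difference was called (Rspo2 against Grik1, log2 difference 0.94 ± 0.33, adjusted p = 0.171; Rorb against Grik1, 1.10 ± 0.37, adjusted p = 0.159). The ranges of *Crhr1* (5.28 to 18.8 CPM over the 6 sums) and *Npy1r* (3.75 to 12.3 CPM) overlapped among these groups, and neither was called.

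*Tacr1* was near 0 in Rorb nuclei, with 0 UMIs in 38 nuclei and 1 UMI in 21 nuclei. Rspo2 nuclei had 25 and 7 UMIs (13.0 and 18.5 CPM) and Grik1 nuclei 15 and 21 UMIs (10.2 and 29.2 CPM). With the libraries summed, the Rspo2 level was 13.4 times that of Rorb nuclei (95% counting interval 2.24 to 546) and the Grik1 level 15.9 times (2.68 to 645). Neither comparison was called (adjusted p = 0.183 and 0.103). With the library as a block the same differences had an adjusted p of 0.0391 and 0.0262, which made 2 called members in place of 1 in both comparisons. The block also raised the genes called to 454, 667 and 591 from 232, 328 and 271.

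The third comparison split GABAergic nuclei by *Foxp2*, the gene that the authors used to mark intercalated cells. *Npffr2*, *Cckbr* and *Crhr1* were higher in Foxp2-high nuclei, where *Foxp2* itself, the gene of the split, was at 1717 and 2173 CPM. Of the 10 members, 7 passed the filter and 3 were called, each higher in Foxp2-high nuclei. Of the 10912 genes tested, 12.1% were called, and 5.78% were higher in Foxp2-high nuclei.

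*Npffr2* had 53.4 and 49.4 CPM in Foxp2-high and 1.88 and 0.700 CPM in Foxp2-low nuclei. It was detected in 25.5% and 30.2% of Foxp2-high nuclei and in 1.70% and 0.613% of Foxp2-low nuclei, and the log2 difference was 5.36 ± 0.37 (adjusted p = 1.11e-07). Of the 236 *Npffr2* UMIs in GABAergic nuclei, 230 were in Foxp2-high nuclei. *Cckbr* had 25.6 and 21.3 CPM against 3.29 and 3.5 CPM, a log2 difference of 2.76 ± 0.37 (adjusted p = 6.18e-05). Its level in Foxp2-high nuclei thus lay between the 19.5 and 27.6 CPM of glutamatergic nuclei, and above the 18.4 and 15.3 CPM of Grik1 nuclei. *Crhr1* had 31.2 and 22.0 CPM against 7.52 and 4.2 CPM, a log2 difference of 2.20 ± 0.34 (adjusted p = 0.000284). The like class levels of *Crhr1* thus covered unlike groups, as Foxp2-high nuclei were above and Foxp2-low nuclei below glutamatergic nuclei in both libraries. The depth of the groups was close (median 7995 and 7046 UMIs in Foxp2-high, 7432 and 7375 in Foxp2-low nuclei).

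*Npy1r* went the other way, with 4.16 and 0.968 CPM in Foxp2-high and 8.93 and 5.95 CPM in Foxp2-low nuclei. The groups did not overlap, but the log2 difference of -1.76 ± 0.61 was not called (adjusted p = 0.0763). With the library as a block its adjusted p was 0.0299, which made 4 called members, and 2416 instead of 1315 genes were called. *Tacr1* (48.5 and 60.0 against 50.3 and 35.0 CPM) and *Crhr2* (11.8 and 3.55 against 4.23 and 7.35 CPM) overlapped between the groups. *Npsr1* had 4.85 and 49.7 CPM in Foxp2-high and 64.4 and 52.2 CPM in Foxp2-low nuclei (log2 difference -0.82 ± 0.45, adjusted p = 0.315), and the high value in library 3 came mostly from 5 nuclei that held 80.5% of the 154 UMIs.

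Because *Npffr2*, *Crhr1* and *Cckbr* were higher in the same group of nuclei, their promoter windows are shown, the 250 bases before the RefSeq start of each gene on GRCm38.p6 (plus strand, 5′ to 3′). Capitals mark the forkhead core motif TGTTTAC or its reverse complement GTAAACA, the kind of element that Foxp2 and other forkhead factors can bind.
Npffr2, chr5:89527179-89527428: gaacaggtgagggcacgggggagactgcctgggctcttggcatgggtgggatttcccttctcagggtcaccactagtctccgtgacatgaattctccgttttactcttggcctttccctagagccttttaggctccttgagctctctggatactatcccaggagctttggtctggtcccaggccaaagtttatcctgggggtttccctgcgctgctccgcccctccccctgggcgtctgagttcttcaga
Crhr1, chr11:104132531-104132780: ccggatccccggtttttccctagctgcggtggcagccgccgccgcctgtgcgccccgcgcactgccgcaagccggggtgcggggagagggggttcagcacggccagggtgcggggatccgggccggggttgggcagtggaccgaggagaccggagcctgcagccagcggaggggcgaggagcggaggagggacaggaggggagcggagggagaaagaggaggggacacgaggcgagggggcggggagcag
Cckbr, chr7:105425481-105425730: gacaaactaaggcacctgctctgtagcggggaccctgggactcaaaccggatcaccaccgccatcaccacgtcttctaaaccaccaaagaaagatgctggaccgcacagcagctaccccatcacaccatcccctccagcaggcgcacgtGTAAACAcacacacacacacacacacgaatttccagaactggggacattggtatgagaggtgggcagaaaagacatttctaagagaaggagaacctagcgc
The motif was present once, in the *Cckbr* window, with its first base at -101 from the start, and in none of the windows of the other 9 members. Of 32851 windows of the same length, 3.17% held it on either strand. A match of these letters is a description of the window and shows no binding, and the GC content of the windows was 57.2% (*Npffr2*), 74.8% (*Crhr1*) and 53.6% (*Cckbr*).

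Foxp2-high nuclei were further split by the retinoic acid receptor gene *Rarb* (59 and 160 nuclei with at least 2 UMIs, 94 and 191 with fewer). The authors used *Rarb* to mark cells of the amygdalostriatal area. *Tacr1* was higher with *Rarb*, at 79.6 and 83.7 CPM against 27.8 and 35.9 CPM. It was detected in 39.0% and 39.4% of nuclei with *Rarb* and in 9.57% and 15.2% of those without, and the log2 difference was 1.33 ± 0.26 (adjusted p = 0.00389). Of the 10 members, 6 passed the filter and *Tacr1* was the one called, and 1.61% of 8515 genes were called. DESeq2 (adjusted p = 0.0783), thinning (0.128) and at least 4 transmitter UMIs (0.228) did not call it. *Crhr1* (22.5 and 14.7 against 37.0 and 29.4 CPM), *Cckbr* (19.0 and 14.7 against 30.1 and 28.1 CPM) and *Npffr2* (41.5 and 38.3 against 61.3 and 60.7 CPM) were lower with *Rarb* in both libraries. None of these was called (adjusted p = 0.33, 0.455 and 0.396).

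Foxp2-low nuclei were split by at least 2 UMIs of a single one of the interneuron markers *Sst*, *Vip* and *Reln*. Each group was compared with unmarked nuclei, which had at most 1 UMI of each (151 and 208). *Tacr1* was higher in *Sst* nuclei (20 and 33), at 267 and 102 CPM against 23.5 and 34.3 CPM. It was detected in 45% and 36.4% of *Sst* nuclei and in 11.9% and 12% of unmarked nuclei. The log2 difference was 2.58 ± 0.39 (adjusted p = 0.000544), with log2 ratios of 3.49 in library 2 and 1.58 in library 3. In library 2, 5 nuclei held 86.9% of the 61 *Tacr1* UMIs of the *Sst* group. Of the 10 members, 2 passed the filter in these splits, *Tacr1* and *Npsr1*, and of 5726 genes 2.5% were called for *Sst*, 3.09% for *Vip* and 3.35% for *Reln*. The block called as many members, and 234 instead of 143 genes for *Sst* and 334 instead of 192 for *Reln*.

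*Npsr1* was at 210 and 67.8 CPM in *Sst* nuclei against 58.7 and 58.7 CPM, which was not called (adjusted p = 0.279). In *Reln* nuclei (48 and 70) *Npsr1* was at 2.26 and 30.6 CPM (adjusted p = 0.178) and *Tacr1* at 31.6 and 10.2 CPM (adjusted p = 0.867). No member was called for *Vip* or *Reln* by edgeR or DESeq2 with the filter on low counts, and without it edgeR called *Npsr1* for *Reln* (adjusted p = 0.00422). At an unadjusted p under 0.05, edgeR had 0 for *Vip* and 1 for *Reln* (*Npsr1*), and the *Vip* groups held 10 and 6 nuclei. *Npy1r*, which did not pass the filter, had 4 and 1 UMIs in *Vip* nuclei (41.6 and 20.6 CPM), in 3 nuclei over both libraries. With libraries summed this was 5.45 times the level in unmarked nuclei (95% counting interval 1.59 to 15.1). Such an interval takes each UMI as independent and is no test of a difference. *Crhr2* had its highest levels in *Sst* nuclei in library 3 (16.9 CPM, 5 UMIs) and in Foxp2-high nuclei with *Rarb* in library 2 (15.6 CPM, 9 UMIs). In library 2 *Sst* nuclei were at 13.1 CPM (3 UMIs), and the 2 counting intervals there overlapped (2.70 to 38.3 and 7.12 to 29.6 CPM). Unmarked nuclei had 3.92 and 8.71 CPM. The order in library 2 was thus not settled.

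*Oxtr* and *Tacr3* were sparse. *Oxtr* had 0 UMIs in both libraries in Rspo2 and Rorb nuclei, which allows up to 3 UMIs in each. In GABAergic nuclei, 10 of 11 *Oxtr* UMIs were in Foxp2-low nuclei (1.88 and 2.10 CPM against 0 and 0.323 CPM), and the ratio of 9.11 had a 95% counting interval from 1.30 to 395. The difference was not tested. *Tacr3* had 21 and 9 UMIs in Foxp2-low nuclei, and in library 2 all 21 lay in 8 unmarked nuclei. In Foxp2-high nuclei it had 0 UMIs in library 2 and 9 UMIs in 3 nuclei of library 3. Glutamatergic nuclei with at least 2 UMIs of more than 1 of *Rspo2*, *Rorb* and *Grik1* (26 and 14) entered no comparison. They held 15 of the 25 *Tacr3* UMIs of glutamatergic nuclei, in 5 nuclei, a mean of 14.9 ± 2.28 CPM (SD).

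Co-detection was counted within Foxp2-high nuclei as a description, with the count that independent detection would give within 5 bins of depth. *Cckbr* and *Npffr2* were found together in 9 and 27 nuclei, where 8.61 and 18.3 would be given. *Crhr1* and *Npffr2* were found together in 12 and 16 nuclei, where 10.1 and 17.3 would be given. *Tacr1* and *Npffr2* were found together in 7 and 22 nuclei, where 8.30 and 28.6 would be given. Receptor counts in single nuclei were sparse, so these counts give no finding on which receptors share a cell.

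The genes most like each receptor were sought over 20 sums (10 groups in 2 libraries) among 7807 genes by Pearson's r of log2(CPM + 5). The sums share libraries and depth, and r is a description. *Npffr2* was closest to *Gm13974* (r = 0.96), *Tshz1* (0.95) and *B3galt1* (0.94). *Cckbr* was closest to *Nptn* (0.94), *Celf2* (0.93) and *Ankrd33b* (0.92), and *Crhr1* to *Col23a1* (0.90), *Ppp3ca* (0.90) and *Sipa1l1* (0.89). *Tacr1* was closest to *Runx1t1* (0.88), *Sergef* (0.85) and *Gpr149* (0.84), *Npy1r* to *Plaa* (0.86), *Mbd6* (0.84) and *Adrb1* (0.84), and *Npsr1* to *Ldb3* (0.82) and *Skap2* (0.82). The other 4 members had fewer than 100 UMIs over the sums and were not compared.

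Genes of the same pathways were taken from lists by function. The first list held 15 genes, the precursors of ligands and *Crhbp*, a secreted binding protein of corticotropin-releasing hormone. Of these, 5 were tested between the classes and 4 were called, *Crhbp* and 3 ligands, each higher in GABAergic nuclei. A gene can pass the filter through the group where it is high. The counts for this and the later lists are thus no findings about sets. *Crhbp* had 23.0 and 12.1 CPM in GABAergic and 0.238 and 0.630 CPM in glutamatergic nuclei (adjusted p = 1.25e-05). *Npy* had 20.2 and 12.8 against 1.43 and 0.945 CPM (adjusted p = 2.42e-05), and *Tac1* and *Tac2*, the precursors of substance P and neurokinin B, were also called. *Cck* was not (21.1 and 16.1 CPM in glutamatergic against 7.56 and 15.3 CPM in GABAergic nuclei, adjusted p = 0.205). Between the *Foxp2* groups 5 genes of this list were tested, and *Crhbp* and the ligands *Npy* and *Cck* were called lower in Foxp2-high nuclei. *Cck* there had 2.08 and 6.46 against 11.3 and 24.9 CPM (adjusted p = 0.0179), so it was lower where its receptor *Cckbr* was higher. In *Sst* nuclei *Npy* was at 153 and 105 CPM against 7.05 and 10.5 CPM (adjusted p = 1.91e-05), beside the higher *Tacr1*.

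Of 9 other receptors of the same ligands, 3 were tested between the classes, and *Npffr1* and *Npy2r* were called higher in GABAergic nuclei. *Npffr1*, the second receptor of neuropeptide FF, had 1.39 and 0.968 CPM in Foxp2-high and 16 and 14.4 CPM in Foxp2-low nuclei (log2 difference -3.67 ± 0.52, adjusted p = 0.000113), the opposite order to *Npffr2*. *Npy2r*, like *Npy1r* a receptor of neuropeptide Y, had 3.47 and 2.26 against 19.3 and 5.95 CPM (adjusted p = 0.0214). Both tested genes of this list were thus lower in Foxp2-high nuclei.

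Of 22 receptors of other neuropeptides, 10 were tested between the classes. Higher in glutamatergic nuclei were 4 (*Vipr1*, *Trhr*, *Sstr2* and *Galr1*), and higher in GABAergic nuclei 3 (*Hcrtr2*, *Adcyap1r1* and *Nmbr*). Among glutamatergic nuclei, the thyrotropin-releasing hormone receptor *Trhr* had 57.3 and 76.5 CPM in Grik1, 8.33 and 18.5 CPM in Rspo2 and 15.8 and 3.75 CPM in Rorb nuclei (adjusted p = 0.00577 and 0.0288 against Grik1). That order put Grik1 nuclei highest, where *Npsr1* was lowest. Of 19 genes of G protein signalling, 18 were tested between the classes, and 3 were higher in glutamatergic (*Adcy1*, *Adcy9* and *Gnaz*) and 4 in GABAergic nuclei (*Gnal*, *Plcb4*, *Gna14* and *Adcy5*). Within Foxp2-high nuclei, the adenylyl cyclase *Adcy5* was higher with *Rarb* (192 and 211 against 74.0 and 75.1 CPM, adjusted p = 0.00035), as *Tacr1* was.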

How the data were processed

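Reads were processed by the authors with Cell Ranger 7.0.1 on mm10, and what they deposited are unnormalized whole UMI counts for each gene in each barcode of a library. The labels give 3 replicate libraries of 1 group. Library 1 was left out of the comparisons, since it held 42 glutamatergic and 7 GABAergic nuclei. The members, gene lists, gates and tests were chosen with earlier results of these data known.

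Counts were summed per group and library and tested with edgeR 4.0.16 in R 4.3.3 (quasi-likelihood F test after filterByExpr and TMM scaling, p-values adjusted by Benjamini-Hochberg over every gene tested, threshold 0.05). The 3 glutamatergic splits shared 1 fit, as did the 3 splits by *Sst*, *Vip* and *Reln*. Sums of a library come from the same nuclei pool and are paired, and the fit with the library as a block was an alternative. The sources used here do not say that the libraries came from different animals, so the spread between libraries may be technical. The p-values and SEs rest on that spread as the fits estimate it, in part shared between genes. They do not measure the spread of a single gene over its own 2 libraries. The SE of a log2 difference was derived from the difference and its F statistic. Apart from the interval of the *Crhr1* log2 difference, intervals and limits (3 counts for a count of 0) cover counting error only. The named genes are the 10 members, the called or example genes of the lists, and the 3 genes most alike to a member, of which 1 is not reported here. Doublets were not removed in the main fits, and an alternative used part of the authors' quality filter (over 200 genes, under 20% mitochondrial and under 0.2% hemoglobin UMIs), without their limit on ribosomal protein genes and their doublet caller. Scrublet's threshold marked 0 and 166 barcodes, so an alternative removed the 115 and 168 with the highest scores. Oligodendrocyte-like nuclei were gated by their markers. Steps were tested on simulated data. Other alternatives were RLE size factors, DESeq2 1.42.0, no filter on low counts, thinning to 1000 UMIs, stricter gates, no glial limit and each library alone.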

Additional observations from a re-analysis of the deposited data

Results flagged for a closer look

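Library 1, which entered no comparison, also held UMIs of 9 members over its 819 barcodes, more than the 3 UMIs that a count of 0 allows. These were 450 UMIs of *Npsr1*, 326 of *Cckbr*, 201 of *Crhr1*, 166 of *Npy1r*, 103 of *Tacr1*, 80 of *Crhr2*, 39 of *Oxtr*, 26 of *Tacr3* and 20 of *Npffr2*. Over its 8078394 UMIs, *Npsr1* was at 55.7 CPM, below the 112 and 86.6 CPM over all barcodes of libraries 2 and 3. *Crhr1* (24.9 against 15.9 and 11.2 CPM), *Crhr2* (9.9 against 2.75 and 2.18 CPM) and *Oxtr* (4.83 against 0.862 and 0.696 CPM) were above. The difference between libraries was not tested. Of the barcodes of library 1, 515 (62.9%) held UMIs of both transmitters, against 3.32% and 4.95% in libraries 2 and 3.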

How the results depend on the processing

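Of 415 values of members tested under the alternatives, 397 kept their side of the threshold, 8 lost and 10 gained a call, and none changed sign where called. A member that no longer passed the filter gave no value, so its call is not counted among the 8. Members called in place of the 5 between classes were 3 with thinning. For Rspo2 against Rorb, 1 became 2 with the library block or no filter, and 0 with at least 4 transmitter UMIs, 1 UMI more of the splitting markers or members capped at 3 UMIs. For Rorb against Grik1, 1 became 2 with the block or no filter and 0 with the cap. For *Foxp2*, 3 became 5 with no filter (*Npy1r* and *Npsr1*) and 1 with thinning (*Npffr2*), for *Rarb* 1 became 0 with DESeq2, thinning or 4 transmitter UMIs, and for *Reln* 0 became 1 with no filter (*Npsr1*). When thinned, *Cckbr* and *Crhr2* between classes, *Cckbr* and *Crhr1* for *Foxp2*, and all members in the glutamatergic, *Sst*, *Vip* and *Reln* splits no longer passed the filter. The block changed the calls of *Tacr1* in both Rorb comparisons and of *Npy1r* for *Foxp2*, and no other member's call. Members whose share lay above the oligodendrocyte-like one were 6, with 2 when thinned and 7 with no limit on glial UMIs, where *Npy1r* was added. The cap was chosen after seeing the data.

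Each library alone, a value with no test, kept the direction of all 13 called differences, from -5.79 to 5.82 on the log2 scale. The fold moved by over 1.5 times for *Npsr1* between classes (0.87 without library 2 and 2.32 without library 3), *Tacr1* for *Sst* (1.58 and 3.49) and *Npffr2* for *Foxp2* (4.67 without library 3). Of 84 such values, 18 lay more than 1 SD from the fitted difference. That SD came from the same 2 library values and grows as they differ, so the count allows no conclusion on stability.

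Genes called between classes were 2112, with the block 3216 and thinned 745. For Rspo2 against Rorb these were 232, 454 and 42, for Rspo2 against Grik1 328, 667 and 63, for Rorb against Grik1 271, 591 and 65, for *Foxp2* 1315, 2416 and 596, for *Sst* 143, 234 and 73, and for *Reln* 192, 334 and 78. Thinning left 88 of 137 for *Rarb* and 60 of 177 for *Vip*. Without a filter 397, 583 and 462 were called in the glutamatergic splits and 276 for *Vip*, and with 4 transmitter UMIs 151, 215 and 136, 764 for *Foxp2* and 58 for *Rarb*. DESeq2 called 211 for Rspo2 against Grik1, 809 for *Foxp2*, 66 for *Rarb* and 103 for *Reln*, and 1 UMI more of the markers left 87 for *Rarb*. Thinning leaves 1000 UMIs per nucleus, and the other causes were not tested.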
